A study of Mus musculus with 1019 samples.

Results

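The costimulatory, checkpoint and activation receptors described here are encoded by 9 genes, Cd28, Icos, Ctla4, Pdcd1, Tigit, Cd96, Lag3, Cd69 and Cd44, chosen by name from 23725 genes in a table of single regulatory T cells (Tregs). The cells came from male B6 mice aged 20 months and were sorted as DAPI- TCRb+ CD4+ CD25+, from the spleen or from epididymal visceral adipose tissue (VAT). inDrops, a droplet method, tagged the end of each mRNA next to its poly(A) tail with a unique molecular identifier (UMI), so that each UMI stands for 1 captured molecule. The table held 1 spleen library with 375 cells and 2 VAT libraries, numbered 2 and 3 in the labels, with 330 and 314 cells. Spleen was dissociated mechanically whereas VAT was digested with collagenase and dispase, so tissue and dissociation cannot be told apart. No label ties a library to an animal and the cells of a library share their source, so a library counts as 1 sample and no test was possible. The single spleen library served as the reference for both VAT libraries.

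These receptors set how strongly a T cell responds once its antigen receptor is engaged. CD28 and ICOS deliver costimulatory signals from B7-family ligands; CTLA-4 competes with CD28 for the same ligands, and PD-1, LAG-3, TIGIT and CD96 are inhibitory or modulatory receptors. CD69 is an early activation marker that holds cells in tissue by removing the egress receptor S1PR1 from the surface, and CD44, a receptor for hyaluronan, is high on antigen-experienced T cells. VAT Tregs are a tissue population known for high surface levels of activation markers and for the alarmin receptor ST2.

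The libraries held 573622 UMIs in spleen, 556099 in VAT library 2 and 548770 in VAT library 3, with medians of 1423, 1565 and 1611 per cell. The Treg factor Foxp3 had a UMI in 34.7% of spleen cells, 38.8% of VAT library 2 and 31.2% of VAT library 3, and Cd8a was at 0 in every library. The 15 myeloid markers summed to 92.4 CPM (UMIs per 1000000 UMIs of the library) in spleen and to 214 and 226 in the VAT libraries, and a UMI of any of them was in 11.7%, 25.8% and 26.4% of cells. Adgre1, Cd14 and the C1q genes were at 0 in all 3 libraries, whereas Lyz2 and Csf1r were at 0 in spleen and had UMIs in both VAT libraries. NK and CD8 markers summed to 73.2, 75.5 and 69.2 CPM. Erythroid markers summed to 202, 1.80 and 1.82 CPM in the same order, and B cell markers to 106, 14.4 and 27.3, with Cd79a at 0. A UMI of an erythroid marker was in 21.9%, 0.303% and 0.318% of cells, and one of a B cell marker in 11.5%, 1.21% and 3.82%. Without the cells that held a UMI of any such marker, 191, 215 and 192 cells remained. In these, Ctla4, Pdcd1, Cd69 and Cd44 were at least 2-fold higher in both VAT libraries, and Cd96 was no longer called lower because it fell under the minimum of 50 UMIs, with a log2 ratio of -4.85. The spleen labels disagree among themselves: the source name gives spleen and the tissue field gives both tissues, and the replicate in the sample type differs from the number 2 in the title.

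Cd28, Ctla4 and Icos lie side by side on mouse chromosome 1 (GRCm38, GENCODE M21), all on the plus strand. Cd28 spans chr1:60716800-60773359, Ctla4 chr1:60887000-60915832 and Icos chr1:60977927-61000320, with gaps of 113.6 and 62.1 kb between them. Pdcd1 lies farther along the same chromosome, at chr1:94038305-94052553 on the minus strand. Tigit (chr16:43648867-43664146) and Cd96 (chr16:46035657-46120251), which share the ligand CD155, both lie on the minus strand of chromosome 16. Lag3 (chr6:124904361-124911705, minus strand) lies 16.1 kb from Cd4, whose product binds the same MHC class II ligand. Cd69 (chr6:129267325-129275436) and Cd44 (chr2:102811141-102901665) also lie on the minus strand.

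The RefSeq table of promoters (GRCm38.p6, 250 bases before to 50 after the start) held 5 of the 9 genes, Ctla4, Pdcd1, Cd44, Cd96 and Tigit. Those of 3 genes that were higher in VAT and of Cd96, which was lower, are printed so that the windows can be compared. They are chr1:60908775-60909074 (plus) for Ctla4, chr1:94052504-94052803 (minus) for Pdcd1, chr2:102901616-102901915 (minus) for Cd44 and chr16:46120199-46120498 (minus) for Cd96. Capitals mark GGAAA, the core bound by NFAT and other factors, its reverse complement TTTCC, and TATAAA.
Ctla4: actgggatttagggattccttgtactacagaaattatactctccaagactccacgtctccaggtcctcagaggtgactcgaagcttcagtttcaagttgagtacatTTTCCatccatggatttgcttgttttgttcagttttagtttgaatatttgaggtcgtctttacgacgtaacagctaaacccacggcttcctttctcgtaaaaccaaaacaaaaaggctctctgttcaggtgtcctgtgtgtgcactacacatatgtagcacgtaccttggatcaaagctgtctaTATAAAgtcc
Pdcd1: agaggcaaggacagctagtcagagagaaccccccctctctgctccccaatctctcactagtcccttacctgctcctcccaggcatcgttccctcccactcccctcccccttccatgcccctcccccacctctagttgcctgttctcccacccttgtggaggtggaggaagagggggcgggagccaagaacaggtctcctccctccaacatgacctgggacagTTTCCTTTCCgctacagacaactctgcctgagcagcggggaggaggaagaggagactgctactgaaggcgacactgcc
Cd44: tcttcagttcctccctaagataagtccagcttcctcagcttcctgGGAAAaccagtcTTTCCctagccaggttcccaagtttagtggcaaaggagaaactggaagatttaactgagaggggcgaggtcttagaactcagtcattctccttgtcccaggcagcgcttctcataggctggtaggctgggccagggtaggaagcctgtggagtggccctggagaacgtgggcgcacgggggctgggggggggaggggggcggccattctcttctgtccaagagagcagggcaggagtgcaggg
Cd96: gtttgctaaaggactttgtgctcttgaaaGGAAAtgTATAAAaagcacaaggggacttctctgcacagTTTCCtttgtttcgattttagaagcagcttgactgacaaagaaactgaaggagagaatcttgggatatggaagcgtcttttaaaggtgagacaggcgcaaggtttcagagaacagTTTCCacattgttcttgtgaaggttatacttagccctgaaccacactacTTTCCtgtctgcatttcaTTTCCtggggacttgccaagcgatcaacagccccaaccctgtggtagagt
The core was found on either strand in all 5 windows, and in 61.3% of the 32851 promoters of the table. TATAAA was found in those of Ctla4 and Cd96, against 13.6% of all promoters, and so in a gene of each direction. It lay at position 41, after the start, in Ctla4 and at position -214 in Cd96. The Ctla4 window begins at 60908775, inside the gene span that begins at 60887000. Its RefSeq start is thus not the GENCODE start of the gene. The letters TGANTCA of AP-1 (7.81% of all promoters), TGACGTCA of CREB (1.79%) and GTAAACA of forkhead factors (3.65%) were in none of the 5 windows, which says only that these letters are not there. No motif separated the genes that were higher from the gene that was lower.

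Of the 9 receptor genes, 7 had at least 50 UMIs over the 3 libraries. Ctla4, Pdcd1, Cd69 and Cd44, 4 of these 7, were at least 2-fold higher in both VAT libraries than in spleen, a size that 10.3% of the 4635 genes with 50 or more UMIs passed. Cd96 was lower by that size in both, as were 4.4% of those genes. With ribosomal protein genes kept out of the totals, 383 of the 4635 genes were higher and 338 lower, in place of 478 and 204. Icos and Cd28 passed in neither direction. Tigit (14 UMIs in all) and Lag3 (20 UMIs) were below the minimum. The median log2 ratio of the 7 genes was 1.39 in VAT library 2 and 1.10 in VAT library 3, beside 0.04 and -0.02 over all 4635. The VAT libraries lay 2-fold apart for 4.34% of those genes and for 0 of the 7. Together the 9 genes took 1074, 3521 and 3214 CPM in spleen, VAT library 2 and VAT library 3, and the 7 genes other than Cd69 and Cd44 took 907, 1309 and 1252.

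**Figure D1:**
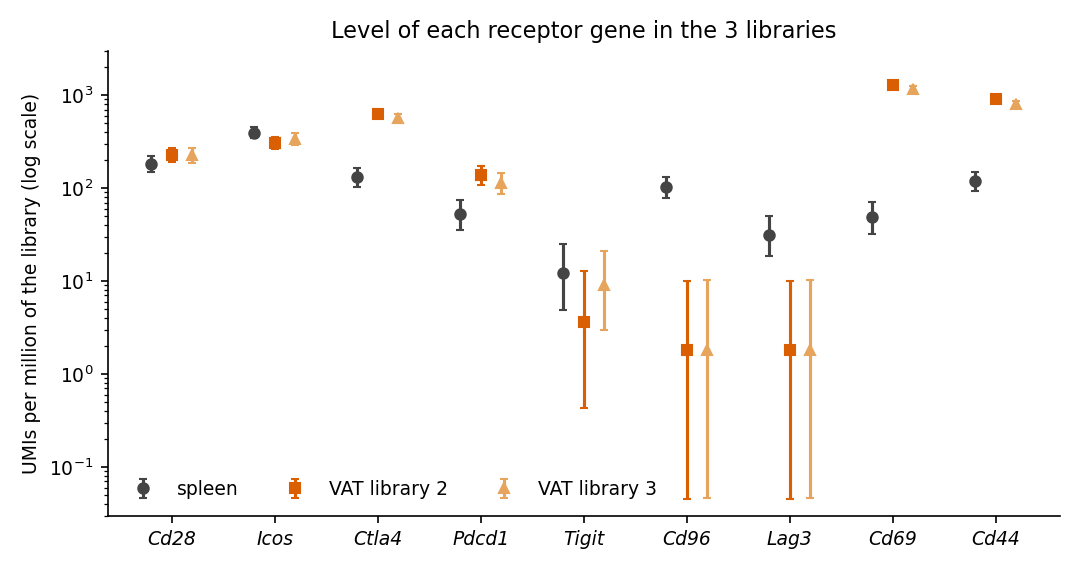
Level of each of the 9 receptor genes in CPM of the library (log scale) in the spleen library (circles), VAT library 2 (squares) and VAT library 3 (triangles), with exact Poisson 95% intervals for counting error. Cd69, Cd44, Ctla4 and Pdcd1 stand higher in both VAT libraries, Cd96 and Lag3 higher in spleen, and Cd28 and Icos lie close together.

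Neither costimulatory receptor passed 2-fold in either direction. Cd28, the primary costimulatory receptor of T cells, had 105 UMIs in spleen, 126 in VAT library 2 and 124 in VAT library 3, or 183, 227 and 226 CPM. The VAT levels were 1.24 times (0.948 to 1.62) and 1.23 times (0.944 to 1.62) that of spleen, where the ranges are exact 95% intervals for counting error, and both intervals include 1. Cd28 was therefore not distinguishable between the libraries at this depth.

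Icos, the inducible relative of CD28, had 226 UMIs in spleen, 170 in VAT library 2 and 186 in VAT library 3, or 394, 306 and 339 CPM. Its level in VAT was 0.776 times that of spleen in library 2 (0.632 to 0.951) and 0.860 times in library 3 (0.705 to 1.05), so 1 interval lay below 1 and the other included it. In cells with a Foxp3 UMI alone the log2 ratio, as a mean of both VAT libraries, was -0.91 in place of -0.29, with 489 CPM in spleen, 208 in VAT library 2 and 323 in VAT library 3. In spleen, about as many cells held a UMI of Icos (85) as of Cd28 (82), but the Icos cells held more of them. A spleen cell with Icos held a mean of 2.66 Icos UMIs, and 30 of the 85 held 3 or more. A spleen cell with Cd28 held a mean of 1.28, and 4 of the 82 held 3 or more. After each cell had been drawn down to 800 UMIs, the share of cells with Icos was 16.8% in spleen, 15.8% in VAT library 2 and 16.6% in VAT library 3, and for Cd28 it was 13.6%, 15.2% and 15.0%.

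Ctla4 and Pdcd1, among the inhibitory receptors, were higher in VAT. Ctla4, whose product removes CD80 and CD86 from antigen-presenting cells, had 75 UMIs in spleen, 351 in VAT library 2 and 308 in VAT library 3, or 131, 631 and 561 CPM. The level was 4.83-fold higher (3.75 to 6.28) in VAT library 2 and 4.29-fold higher (3.33 to 5.60) in VAT library 3, and the VAT libraries did not differ from each other beyond counting error (0.889, 0.761 to 1.04). More cells carried it and carriers held more of it: at 800 UMIs per cell 9.07% of spleen cells had a Ctla4 UMI against 34.8% and 31.8% in VAT, and carriers held a mean of 1.42 UMIs in spleen against 2.14 and 1.96 with all UMIs counted. The highest single VAT cell held 18 UMIs, 5.13% of the Ctla4 UMIs of its library.

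Pdcd1, the gene of PD-1, had 30 UMIs in spleen, 77 in VAT library 2 and 62 in VAT library 3, or 52.3, 138 and 113 CPM. The level was 2.65-fold higher (1.72 to 4.18) and 2.16-fold higher (1.38 to 3.46), and it was found in 3.47%, 7.27% and 7.96% of cells at 800 UMIs. The shares expected over all draws of 800 UMIs were 3.17%, 8.28% and 6.47%. Of the 4 genes that were higher, Pdcd1 lay nearest to the 2-fold limit, and it missed it when ribosomal protein genes were left out of the totals, when cells were weighted equally and when the 5% of cells with most UMIs were removed. Its log2 ratio, as a mean of both VAT libraries, was 1.24, and it was 2.06 in cells with a Foxp3 UMI and 1.95 without cells that held a UMI of another cell type's markers. The cells with a Foxp3 UMI held 6 Pdcd1 UMIs in spleen, 34 in VAT library 2 and 21 in VAT library 3. The 2.06 thus rests on few spleen UMIs and does not show a larger excess in these cells.

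The other inhibitory receptors went the opposite way or were too scarce. Cd96, a receptor for CD155 on T and NK cells, had 59 UMIs in 44 spleen cells and 1 UMI in each VAT library, or 103, 1.80 and 1.82 CPM. The spleen level was 57.2-fold that of VAT library 2 (9.87 to 2297) and 56.4-fold that of VAT library 3 (9.74 to 2267); with 1 UMI in the denominator the size is known only within these limits. At 800 UMIs, 6.13% of spleen cells had a Cd96 UMI and 0.303% and 0.318% of VAT cells, 1 cell in each. No spleen cell held more than 3 Cd96 UMIs, so the spleen level did not rest on a few cells.

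Lag3, a receptor for MHC class II, followed the same order with fewer UMIs: 18 in 15 spleen cells and 1 in each VAT library. Spleen was 17.4-fold (2.76 to 727) and 17.2-fold (2.72 to 717) higher, with both intervals above 1. With the minimum lowered to 20 UMIs Lag3 joined Cd96 as lower in both VAT libraries, a size passed by 6.45% of 7429 genes, where 10.5% were higher. Tigit, which binds the same ligand as CD96, had 7, 2 and 5 UMIs. Its ratios to spleen were 0.295 (0.0299 to 1.55) and 0.747 (0.187 to 2.73), so no difference was detectable at this depth.

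The activation and retention receptors showed the greatest excess in VAT among the 9. Cd69 had 28 UMIs in spleen, 722 in VAT library 2 and 640 in VAT library 3, or 48.8, 1298 and 1166 CPM, which is 26.6-fold (18.2 to 40.3) and 23.9-fold (16.4 to 36.2) higher. At 800 UMIs, 3.20% of spleen cells had a Cd69 UMI, against 49.7% and 40.4% of VAT cells. Carriers held a mean of 1.40 UMIs in spleen and 3.61 and 3.58 in VAT, so both the share of cells and the UMIs per carrier were higher. With all UMIs counted, 3 or more were held by 1 of 20 carriers in spleen, by 116 of 200 in VAT library 2 and by 85 of 179 in VAT library 3.

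Cd44 had 68 UMIs in spleen, 508 in VAT library 2 and 437 in VAT library 3, or 119, 914 and 796 CPM. It was 7.71-fold (5.97 to 10.1) and 6.72-fold (5.19 to 8.81) higher in VAT. It was the one gene of the 9 for which the interval between the VAT libraries excluded 1, at 0.872 (0.765 to 0.993), a difference far smaller than that from spleen. Its share of cells at 800 UMIs was 7.47% in spleen and 38.8% and 39.8% in VAT.

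**Figure D2:**
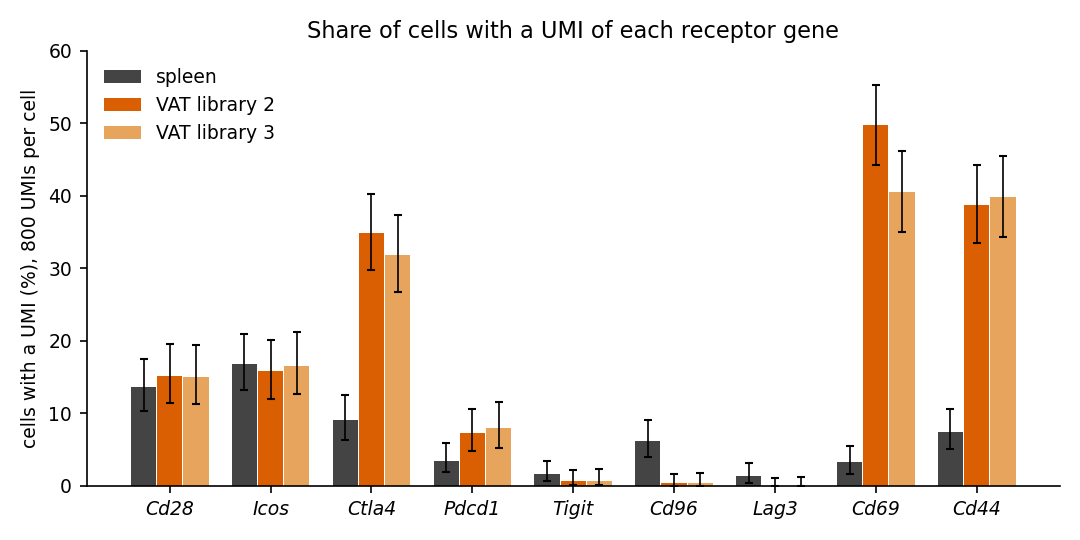
Percentage of cells with at least 1 UMI of each receptor gene after every cell was thinned to 800 UMIs, in spleen (dark bars), VAT library 2 (orange) and VAT library 3 (light orange), with exact Clopper-Pearson 95% intervals. Bars for Cd28 and Icos are of like height in the 3 libraries, those for Ctla4, Cd69 and Cd44 are taller in VAT, and that for Cd96 is taller in spleen.

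Summed over the cells of a library, the receptor mRNAs thus differed between spleen and VAT in composition as well as in amount. The composition within single cells was not computed. At 800 UMIs, 55.2% of spleen cells had no UMI of any of the 9 genes, against 12.7% and 17.5% of VAT cells, and the mean number of these genes found per cell was 0.627, 1.62 and 1.53. In spleen Icos supplied 36.7% of the 616 receptor UMIs and Cd69 4.55%. In VAT library 2 Icos supplied 8.68% of 1958 and Cd69 36.9%, and in VAT library 3 Icos supplied 10.5% of 1764 and Cd69 36.3%. Because each UMI counts an mRNA end once, these levels are not divided by gene length, although genes may be captured with unequal efficiency.

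Ordered by UMIs, spleen ran Icos, Cd28, Ctla4, Cd44, Cd96, Pdcd1, Cd69, Lag3, Tigit. Neighbours whose ratio had an interval including 1 were Ctla4 and Cd44, Cd44 and Cd96, Pdcd1 and Cd69, and Cd69 and Lag3. Both VAT libraries ran Cd69, Cd44, Ctla4, Icos, Cd28, Pdcd1, with each step outside counting error, and ended with Tigit, Lag3 and Cd96. The order of the competing receptors was reversed: there were 0.714 Ctla4 UMIs per Cd28 UMI in spleen (0.524 to 0.970), against 2.79 (2.27 to 3.44) and 2.48 (2.01 to 3.09) in VAT libraries 2 and 3. These ratios within a library do not depend on its total. Ctla4 UMIs per Icos UMI likewise went from 0.332 in spleen to 2.06 and 1.66 in VAT.

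**Figure D3:**
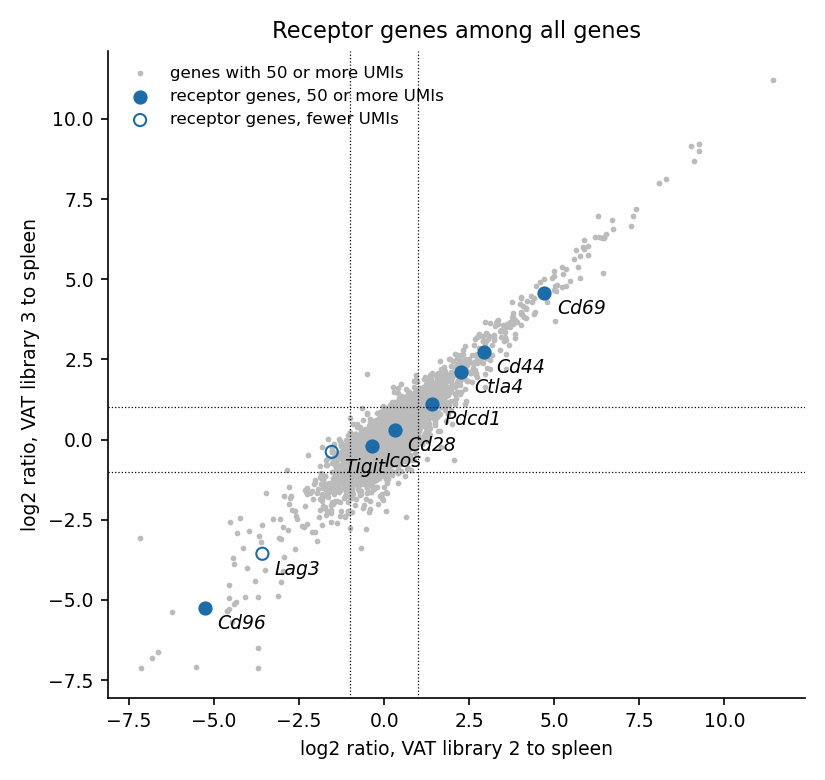
log2 ratio to spleen of VAT library 2 (x axis) and VAT library 3 (y axis) for the 4635 genes with 50 or more UMIs (grey), with the 7 receptor genes that reached this minimum filled and Tigit and Lag3 open. Both axes share the spleen library, so points lie along the diagonal in part for that reason, and dotted lines mark 2-fold.

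Within a library, cells with a UMI of another gene were set against the rest, using all UMIs and then the median over 50 draws of 800 UMIs per cell. The draws reuse the same cells, so they show the effect of the draw and are not independent support. In spleen, Icos was higher in the 130 cells with a Foxp3 UMI, at 489 against 342 CPM, a ratio of 1.43 (1.09 to 1.87). The median over draws was 1.71 and every draw lay above 1. In VAT the same ratio was 0.557 (0.389 to 0.786) in library 2 and 0.933 (0.673 to 1.28) in library 3, with 6 and 18 of 50 draws above 1. The excess of Icos in cells with a Foxp3 UMI was thus seen in the spleen library and in neither VAT library, and the difference between the libraries was not tested.

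Cells with a UMI of Tnfrsf9 or Irf8 had Ctla4, Cd44 and Pdcd1 ratios above 1 in all 3 libraries with all UMIs. Tnfrsf9 encodes a costimulatory receptor of activated Tregs. In spleen Ctla4 was at 1.93 times (1.14 to 3.18) and Cd44 at 2.39 times (1.41 to 3.99) the level of the other cells, with 46 and 48 of 50 draws above 1. In VAT library 2 Ctla4 was at 1.64 times (1.27 to 2.11) and Cd44 at 1.84 times the level of the other cells, and every draw of both lay above 1, with a median of 1.91 for Cd44. In VAT library 3 the ratios were 1.47 (1.01 to 2.08) for Ctla4 and 1.36 (0.989 to 1.83) for Cd44, an interval that includes 1, with 37 and 45 of 50 draws above 1 and a median of 13 cells with such a UMI at 800 UMIs. Cd69 went the other way in these VAT cells, at 0.686 (0.541 to 0.862) and 0.776 (0.556 to 1.06), with 6 of 50 draws above 1 in each library. Ctla4 and Cd69, both higher in VAT than in spleen, thus lay on opposite sides of 1 in these VAT cells. For Pdcd1 the spleen ratio was 1.93 (0.807 to 4.32), with 35 of 50 draws above 1. VAT libraries 2 and 3 gave Pdcd1 ratios of 2.06 (1.19 to 3.43) and 1.83 (0.793 to 3.74), with 40 and 24 draws above 1. Icos differed by library. The spleen ratio of Icos was 1.66 (1.23 to 2.22), whereas VAT library 2 gave 0.534 (0.298 to 0.896). VAT library 3 gave 1.15 for Icos, with an interval that included 1 (0.668 to 1.88).

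Klrg1, a receptor of mature VAT Tregs, had a UMI in 83.9% and 89.2% of VAT cells. Cd28 was at 0.664 times (0.428 to 1.06) and 0.685 times (0.403 to 1.24) the level of the other cells and Icos at 0.805 (0.540 to 1.24) and 0.757 (0.483 to 1.24), so for both genes the intervals included 1. Cd44 was at 1.87 times (1.36 to 2.61) in VAT library 2 and at 1.20 times (0.847 to 1.76) in VAT library 3. Ctla4 was at 1.66 times (1.16 to 2.46) and 1.10 times (0.736 to 1.72). Pdcd1 had 76 UMIs in the cells with Klrg1 and 1 in the others in VAT library 2, a ratio of the CPM levels of 13.1 (2.28 to 525). In VAT library 3 it had 59 and 3, or 118 and 59.3 CPM, with an interval of the ratio from 0.651 to 9.96. The intervals of Cd44, Ctla4 and Pdcd1 thus lay above 1 in VAT library 2 and included 1 in VAT library 3. Cd69 was at 0.970 times (0.790 to 1.20) in VAT library 2 and at 1.52 times (1.11 to 2.15) in VAT library 3. The intervals overlap, and the difference between the libraries was not tested. The intervals allow for counting error alone and understate the uncertainty, since UMIs of a gene were clumped in cells.

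**Figure D4:**
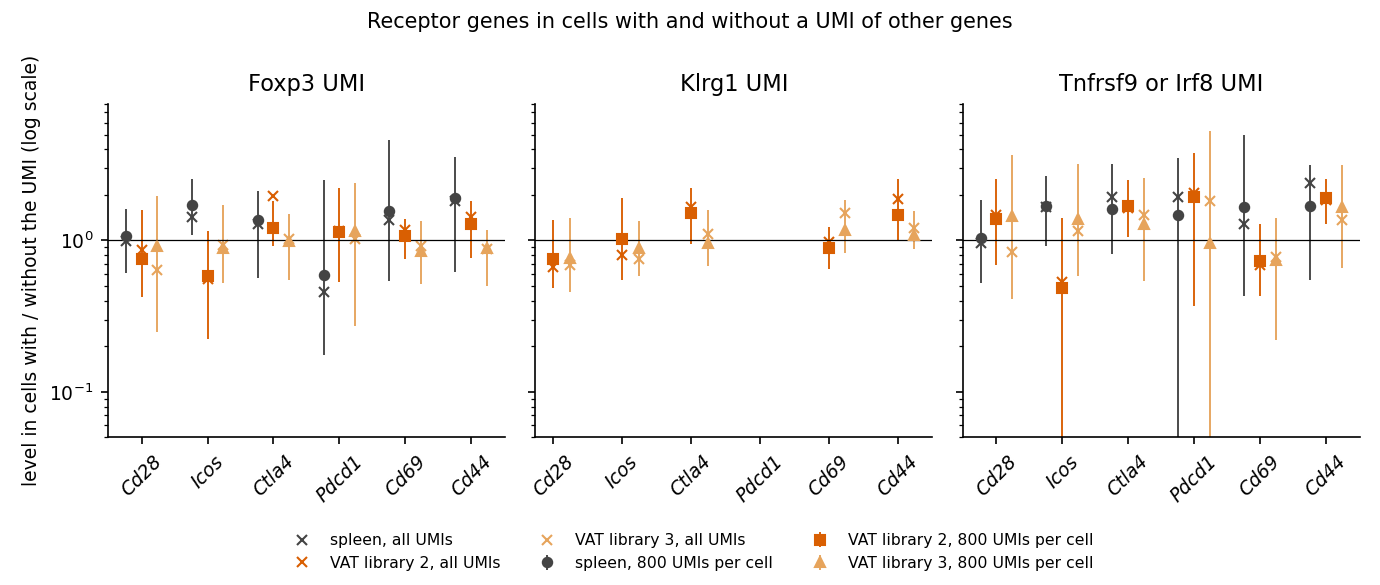
Level of 6 receptor genes in cells with over cells without a UMI of Foxp3, of Klrg1 (VAT only) and of Tnfrsf9 or Irf8, on a log scale, with crosses for all UMIs, and symbols and lines for the median and the full range over 50 draws of 800 UMIs per cell. Ranges that reach 0 run off the axis, and Pdcd1 is not drawn for Klrg1 because some draws held no Pdcd1 UMI in the other cells. Icos lies above 1 over its whole range in spleen cells with Foxp3. In cells with Tnfrsf9 or Irf8 the medians of Cd44 lie above 1 in all 3 libraries, but its whole range does so in VAT library 2 alone.

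Pairs of these genes in the same cell were counted against the product of the single shares. The counts rest on 1 draw of 800 UMIs per cell, and the ratios carry no interval. In VAT library 3, 25 cells held both Ctla4 and Icos at 800 UMIs, 1.51 times the product, whereas in VAT library 2 it was 17 cells, or 0.938 times. Ctla4 with Cd69 was at 1.05 times in VAT library 2 and 1.11 times in VAT library 3, and Cd28 with Pdcd1 at 1.10 and 1.60 times, the latter on 4 and 6 cells. These pairs are examples. Ctla4 with Cd44 was at 1.26 times in VAT library 2 and 0.904 times in VAT library 3. Cd69 with Cd44 was at 0.927 and 1.11 times. Across the 858 genes with a UMI in at least 10% of cells of both VAT libraries, those most alike to Ctla4, Cd69 and Cd44 by the smaller of the 2 Spearman correlations were weakly so. The leading gene for Ctla4 was Il10, the gene of an anti-inflammatory cytokine, with rho of 0.13 and 0.27 over 330 and 314 cells. For Cd69 it was the AP-1 gene Fosb, at 0.13 and 0.14, and for Cd44 the chemokine gene Cxcl2, at 0.16 and 0.11. In sparse counts correlations of this size are no finding.

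Around the 9 genes, the other receptors of the same kind did not share one direction. Among 22 measured genes (20 or more UMIs) of other costimulatory and inhibitory receptors, 2 were at least 2-fold higher in both VAT libraries and 4 lower, beside 10.5% higher and 6.45% lower of the 7429 genes measured, with medians of -0.08 and -0.04 log2 against 0.04 and -0.06 over those genes. Klrg1, an inhibitory receptor for cadherins, had 51, 1921 and 1746 UMIs and was 38.9- and 35.8-fold higher, and Cd200r1, an inhibitory receptor for CD200, was 7.63- and 8.52-fold higher. The lowest included Pecam1 (29, 1 and 2 UMIs), Btla (27, 0 and 4 UMIs) and Nt5e, the CD73 ecto-enzyme gene (99, 12 and 7 UMIs). Of 9 measured genes of the ligands, Lgals3, the gene of a LAG-3 ligand, had 0, 295 and 243 UMIs, Lgals1 was 10.1- and 12.9-fold higher, and Cd86 went from 26 UMIs to 1 and 1.

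Below the receptors, 1 of 35 measured signalling partners was higher, the scaffold gene Iqgap1 at 2.08- and 2.06-fold, and 5 were lower, beside 10.5% higher and 6.45% lower of all 7429 measured genes, with medians of -0.09 and -0.32 log2. The lowest were Sh2d1a, the adaptor gene of SLAM receptors (35, 0 and 0 UMIs), Prkcq, the kinase below CD28 (81, 21 and 21 UMIs), and Pik3ip1, an inhibitor of PI3 kinase (29, 10 and 9 UMIs). The 10 measured genes of the T cell receptor and CD4 had medians of -0.56 and -0.66 log2, with Cd3d lower (283, 132 and 127 UMIs). Of 11 genes of trafficking and shedding, Mmp9, a protease that can cut CD44, was 23.7- and 30.1-fold higher, and Dpp4 went from 27 UMIs to 0 and 0.

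Regulators of the receptor genes and their mRNAs went in both directions, and the shares to read their counts against are again 10.5% higher and 6.45% lower of all measured genes. Of 8 measured RNA-binding regulators, 3 of the ZFP36 family, which bind AU-rich elements, were higher: Zfp36 26.8- and 24.6-fold, Zfp36l2 3.46- and 2.94-fold and Zfp36l1 2.72- and 2.65-fold. Zc3h12d, an endonuclease gene, was lower (30, 14 and 4 UMIs). Of 29 transcription factors 4 were higher, namely Irf4, Id2, Gata3 and Prdm1, and 6 lower, with Id3 (58, 0 and 0 UMIs), Tcf7 (22, 0 and 0) and Bach2 (26, 3 and 6) lowest. Irf4, an activation factor of effector Tregs, was 7.74- and 6.38-fold higher, and Gata3 6.10- and 4.58-fold.

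Immediate early genes, which are induced within minutes of activation or of stress and which tissue digestion can induce, were higher in the same libraries as Cd69. Of 18 measured, 16 were higher and 0 lower, beside 10.5% and 6.45% of all measured genes, with medians of 3.89 and 4.01 log2, and the list took 0.238% of UMIs in spleen, 3.64% in VAT library 2 and 3.37% in VAT library 3. Within a library, rho of Cd69 with the summed list was 0.07 in spleen, 0.10 in VAT library 2 and 0.09 in VAT library 3. For the other receptor genes it ran from -0.10 to 0.14. The part of digestion in the level of Cd69 or of the other receptor genes was not tested.

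**Figure D5:**
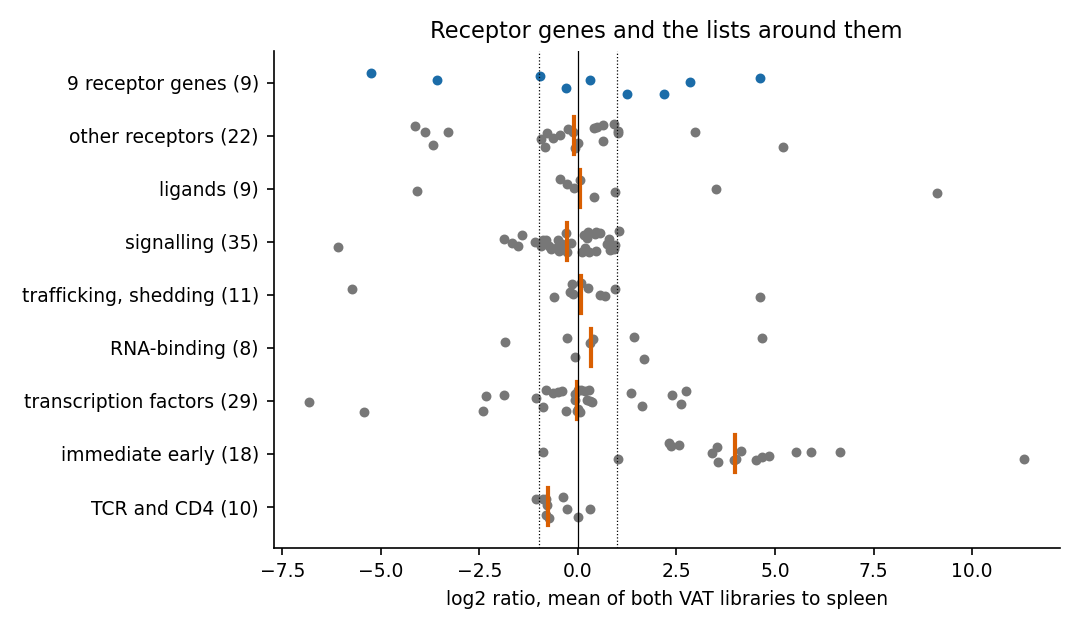
log2 ratio to spleen (mean of both VAT libraries) of the 9 receptor genes (blue) and of the measured genes of each list around them (grey, number of genes in brackets), with orange bars for list medians and dotted lines at 2-fold. The receptor genes spread over both directions and immediate early genes lie to the right.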

How the data were processed

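Tregs were profiled by inDrops, and each cell is 1 column of the deposited table. Per the submitters' processing notes, TopHat2, SAMtools and the mouse build mm10 were used. Gene annotation, cell filter and doublet handling are not given in the sources used here, and no doublet caller was run. The authors deposited UMI counts per gene symbol and cell, not normalized. Columns were matched to labels by title, and libraries shared 0 to 2 cell barcode numbers.

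UMIs were summed per library and divided by the library total (CPM), with exact Poisson 95% intervals. Ratios carry exact conditional binomial intervals. log2 ratios add 0.5 to each count. A gene entered with 50 or more UMIs over the 3 libraries (20 for lists) and was called higher or lower at 2-fold in both VAT libraries. Shares of cells used 1 draw of 800 UMIs per cell (seed 0), since cells held 819 to 4973, with exact Clopper-Pearson intervals. All intervals cover counting error only. With a floor of 3 counts, the limits at 0 UMIs were 5.23, 5.39 and 5.47 CPM in the spleen library and VAT libraries 2 and 3. No cell type that lacks the 9 genes was present, so the UMIs of these genes that came from free RNA could not be measured. All 9 genes are described. From each list, up to 4 genes higher and 3 lower by the log2 ratio nearer 0 are named. The members and lists were chosen with earlier results of these data known. Some results are not reported here. The code was checked on simulated data. Alternatives used TMM factors (edgeR 4.0.16, R 4.3.3), median-of-ratios factors, other totals, filters, depths and cell sets. Python 3.11.15, numpy 2.4.6, scipy 1.17.1 and pandas 2.3.3 were used.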

Additional observations from a re-analysis of the deposited data

How the results depend on the processing

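Over 16 alternatives the number of receptor genes at least 2-fold higher in both VAT libraries was 4 or 3. It was 3, without Pdcd1, with ribosomal protein genes kept out of the totals, with cells weighted equally, without the 5% of cells with most UMIs and at a 3-fold threshold. The share of all genes called higher ran from 8.26% with ribosomal protein genes kept out to 13.0% in cells with a Foxp3 UMI. The share called lower ran from 3.77% to 7.29%. No such share is given for other fold thresholds, for no minimum or with a VAT library left out. Leaving out VAT library 2 or 3 in turn gave 4 higher and 1 lower each time. The number lower was 0 with cells thinned to 800 UMIs, 0 in cells with a Foxp3 UMI and 0 without cells with other cell type markers, where Cd96 fell under the minimum of 50 UMIs by the loss of cells or UMIs. It was 2, with Lag3 added, at a minimum of 20 UMIs and 2 with no minimum. No called gene changed direction. The log2 ratios ran from 4.17 to 4.81 for Cd69, 2.41 to 2.94 for Cd44, 1.96 to 2.29 for Ctla4, 1.02 to 2.06 for Pdcd1, 0.02 to 0.37 for Cd28, -0.91 to -0.22 for Icos and -6.77 to -3.98 for Cd96. In cells with a Foxp3 UMI alone the values were -0.91 for Icos and 2.06 for Pdcd1, the latter with 6 Pdcd1 UMIs in spleen.

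Keeping ribosomal protein genes out of the totals lowered all ratios by 0.23 log2 in VAT library 2 and 0.20 in VAT library 3 (shifts of -0.23 and -0.20), and 383 genes were then higher and 338 lower, against 478 and 204. Shares of cells depended on depth, and 16 of 27 lay outside their interval with all UMIs, but none did against the share expected over all draws of 800 UMIs. Ratios between cells with and without a UMI of another gene were less stable: 20 of 85 lay on the other side of 1 with all UMIs than in the first draw. For Icos in cells with a Foxp3 UMI the planned first draw gave 2.35 in spleen and 0.502 and 0.461 in VAT libraries 2 and 3, and for Ctla4 in VAT library 2 it gave 0.777 against 1.98 with all UMIs, so values from all UMIs and medians over draws are given instead. The 50 draws and the expected shares were added after seeing the data. The titles of the spleen library and of 1 VAT library carry the same number, 2, but another label of the spleen cells gives a different replicate. No paired analysis was possible because only this number is shared and no label ties the libraries to an animal.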

Other observations

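The coding genes within 500 kb of the Cd28, Ctla4 and Icos cluster were looked up as a description. Raph1, the gene of the actin regulator lamellipodin, ends 149.7 kb before Cd28 and was singled out after its values were seen. It had 9 UMIs in spleen, 101 in VAT library 2 and 95 in VAT library 3, which is 11.6-fold (5.86 to 26.0) and 11.0-fold (5.57 to 24.9) higher. Abi2, the next gene out, had 11, 13 and 7 UMIs. Along this stretch of chromosome 1 Raph1 and Ctla4 were therefore higher in VAT, while Cd28, which lies between them, and Icos, which lies beyond Ctla4, were not past 2-fold.

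Cells of the spleen library with a Klrg1 UMI, 12 in all, held Icos at 2.98 times (1.81 to 4.69) and Pdcd1 at 4.48 times (1.14 to 12.9) the level of the other spleen cells. They rest on 21 Icos UMIs and 4 Pdcd1 UMIs in these 12 cells. Both ratios lay above 1 in each of the 50 draws, but the draws reuse the same cells and are not independent support. Of 90 such ratios over all subsets and libraries, 5 lay above 1 in every draw and with all UMIs, and both are among them. In VAT, where most cells had a Klrg1 UMI, the Icos ratio lay below 1 in both libraries with all UMIs, with intervals that included 1, and the Pdcd1 ratio lay above 1 in both, with intervals of 2.28 to 525 in library 2 and 0.651 to 9.96 in library 3.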
